A study of Homo sapiens with 18 samples.

Results

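The inhibitors of cyclin-dependent kinases (CDKs) and the D-type cyclins were examined in K562 cells, a leukaemia line with erythroid features that makes little of the transcriptional corepressor BASP1. Members were the 10 genes of both families by symbol, CDKN1A, CDKN1B and CDKN1C of the CIP/KIP family, CDKN2A, CDKN2B, CDKN2C and CDKN2D of the INK4 family and the cyclins CCND1, CCND2 and CCND3, out of 28395 genes in each RNA-seq table. They came with 42 open-chromatin regions within 5 kb of these genes, out of 85549 regions found by ATAC-seq. The comparison was between 3 stably transfected lines: V-K562 with the empty vector, B-K562 with wild-type BASP1 (wtBASP1) and G-K562 with BASP1-G2A, a mutant that cannot be N-terminally myristoylated. Each line had 3 RNA-seq and 3 ATAC-seq libraries from culture replicates. Each line is a drug-selected (G-418) pool of transfected cells and not a set of independent derivations, so a difference between lines and a difference between transfections cannot be told apart, and p-values measure the spread between cultures of a line. In bulk samples fewer cells of a type and less RNA per cell cannot be told apart.

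D-type cyclins bind CDK4 and CDK6 in response to growth signals, and the kinase complex phosphorylates RB1 and its relatives, which releases E2F factors to transcribe the genes of DNA synthesis. The INK4 proteins bind CDK4 and CDK6 themselves and keep the cyclins off. The CIP/KIP proteins bind assembled cyclin-CDK complexes, inhibit those that hold CDK2, and also help the D-type cyclins to assemble with their kinases. In blood cell lineages these genes set when a dividing precursor leaves the cell cycle to differentiate.

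BASP1 itself was checked before any other gene. Its normalized count (reads divided by the size factor of the library) was between 5 and 7 in V-K562. The B-K562 libraries had 6189 to 6849, and those of G-K562 reached 8124 to 12538. Markers of K562 cells, 7 of 7, had a value of at least 10 in every library, with a summed level of 68390 to 75690 in V-K562. That sum was 104600 to 110300 for B-K562 libraries, and 24760 to 25880 for G-K562. In V-K562 the globin gene HBG2 was its largest part, with a mean of 38340, against 5447 in G-K562. The markers did not move alike in G-K562. Log2 differences of value + 1 against V-K562 ran from -2.85 for HBG1 to -0.56 for GATA1, and LYL1 rose (0.60). The part of these differences in K562 markers in the results below was not tested. Replicate 1 of V-K562 had 40 genes at 10 or more that were at 1 or below in the other V-K562 libraries, and replicate 1 of B-K562 had 45 such genes, against 0 to 2 in each of the other libraries. Lymphocyte markers summed to 555 to 694 in V-K562, 235.9 to 257.3 with wtBASP1 and 272 to 376 with BASP1-G2A, with MS4A1 at 0, and fibroblast markers to 938 to 1317, 612.2 to 761.7 and 811 to 867. Epithelial markers summed to 1131 to 1771 and liver markers to at most 25.42 over all libraries. These sums hide single genes. CDH1, an epithelial marker, had 39, 5 and 3 in V-K562 and 0 to 2 in the other lines. DCN, a fibroblast marker, had 64, 13 and 16 in B-K562, and replicate 1 was the highest for both. CD3E, a lymphocyte marker, had a mean of 14 in V-K562 and 21.67 in B-K562, against the fall of the lymphocyte sum. The part of these markers in the results was not tested.

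The promoters whose open region passed the test in a comparison with V-K562 are shown, as RefSeq gives them for build GRCh38.p14, on the strand of the gene and from 5′ to 3′. They end at the transcription start, or before it where an untranslated exon of another transcript begins. The stretch of CDKN1A is chr6:36678464-36678709 on the plus strand, 246 bases that overlap the exon of the antisense non-coding gene DINOL. That of CDKN2C is chr1:50969995-50970244 on the plus strand, 250 bases before the start of an internal transcript, with no exon annotated. That of CDKN2D is chr19:10569060-10569229 on the minus strand, 170 bases, and that of CCND3 is chr6:41941809-41942058 on the minus strand, 250 bases before an internal start. Capitals mark the motifs found.
CDKN1A: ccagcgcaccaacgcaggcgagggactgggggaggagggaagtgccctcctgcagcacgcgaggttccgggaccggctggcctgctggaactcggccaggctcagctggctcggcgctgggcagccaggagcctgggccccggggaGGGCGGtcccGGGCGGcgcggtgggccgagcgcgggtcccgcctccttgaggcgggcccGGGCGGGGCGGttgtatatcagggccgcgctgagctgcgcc
CDKN2C: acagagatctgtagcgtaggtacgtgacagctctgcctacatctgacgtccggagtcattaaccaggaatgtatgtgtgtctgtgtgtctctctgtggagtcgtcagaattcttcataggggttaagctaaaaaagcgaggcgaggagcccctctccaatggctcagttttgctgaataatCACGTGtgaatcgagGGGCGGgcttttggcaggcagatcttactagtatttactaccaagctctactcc
CDKN2D: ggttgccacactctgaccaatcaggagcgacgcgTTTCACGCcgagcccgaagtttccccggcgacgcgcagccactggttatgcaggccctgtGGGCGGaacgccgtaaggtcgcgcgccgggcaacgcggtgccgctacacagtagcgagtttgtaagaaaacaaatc
CCND3: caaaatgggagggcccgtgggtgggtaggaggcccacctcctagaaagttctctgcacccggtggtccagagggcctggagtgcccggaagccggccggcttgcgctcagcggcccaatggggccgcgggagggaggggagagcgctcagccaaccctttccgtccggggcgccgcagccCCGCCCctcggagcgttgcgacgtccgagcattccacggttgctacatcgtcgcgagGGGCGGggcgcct

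The letters of 4 motifs were searched on both strands in the 250 bases before each start: GGGCGG (the GC box), GCGNGGGCG (an EGR and WT1 type site), TTTNNCGC (an E2F type site) and CACGTG (the E box). A GC box inside an EGR and WT1 type site counts for both. The CDKN1A window held 4 GC boxes, of which 2 overlap, and none of the other motifs. The internal CDKN2C window held 1 GC box and 1 E box. The CDKN2D window held 2 GC boxes, of which 1 is in the stretch printed, and 1 E2F type site. The internal CCND3 window held 2 GC boxes. Of 35116 windows of this length in the genome, 42.6% held a GC box, 8.41% the EGR and WT1 type letters, 5.92% the E2F type letters and 6.34% an E box, so the GC boxes are common letters in promoters. Among the 12 windows of the 7 members in the table, the EGR and WT1 type letters stood in 1 further CDKN2C window and 1 further CCND3 window, each over a GC box, and these windows overlap annotated untranslated exon and are not printed.

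Levels were compared between genes as normalized counts per kb of exon, on a common scale for the lines. In V-K562, CCND3 had the highest level at 2130 ± 31.2 (SD, n = 3), followed by CDKN1A at 1010 ± 93.8, CDKN2C at 615 ± 36.2, CDKN1C at 587 ± 82.3, CCND2 at 413 ± 30.8, CDKN1B at 345 ± 21.1, CDKN2D at 227 ± 19.9 and CCND1 at 156 ± 12.3. Of the neighbours in this order, CDKN2C and CDKN1C overlapped between libraries and the others did not. In B-K562 the order below CCND3 changed: CDKN2C stood at 871 ± 12.5 and CDKN1B at 391 ± 13.7, and CDKN1A was below CCND2 with 197 ± 7.61 per kb, where its libraries overlapped with those of CDKN1C at 178 ± 17.9. CCND1 at 131 ± 3.27 and CDKN2D at 127 ± 4.35 also overlapped there. In G-K562, CDKN1A was again next to CCND3 with 1520 ± 96.0 per kb. CCND1 rose in this order to 335 ± 75.3 per kb. Its libraries overlapped there with those of CCND2 at 403 ± 23.2, of CDKN1C at 330 ± 18.6 and of CDKN2D at 268 ± 7.9.

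**Figure D1:**
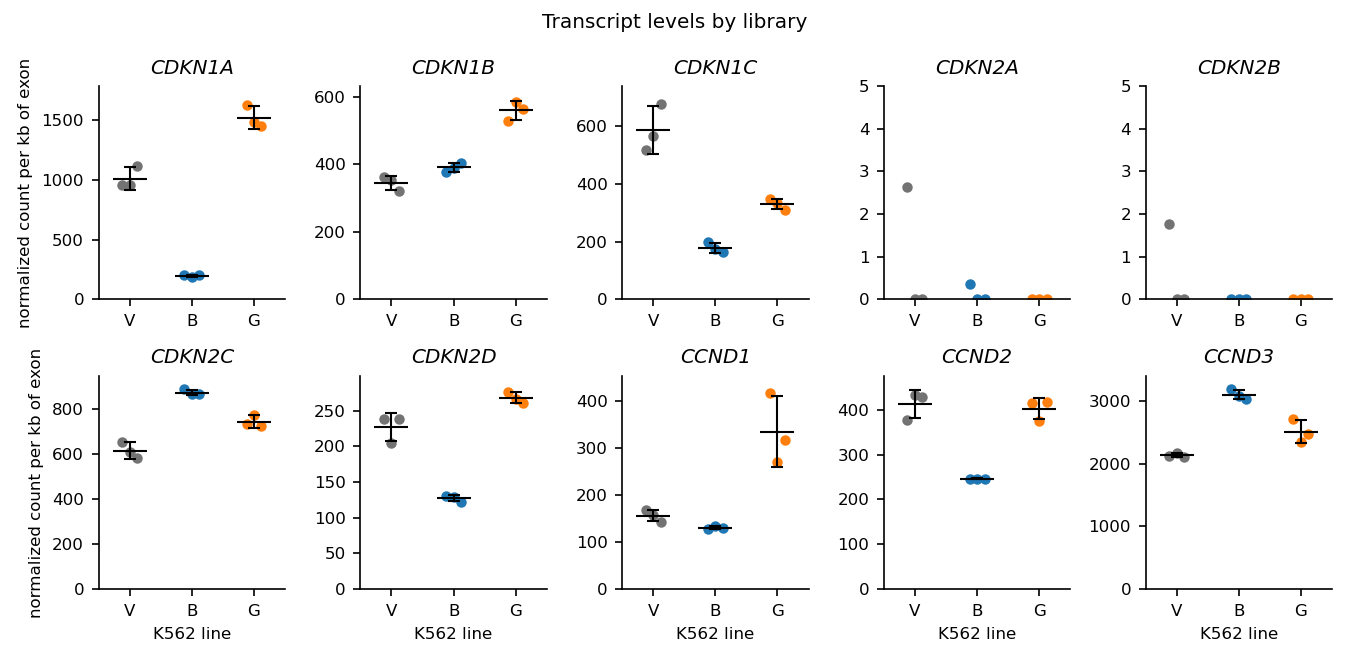
Normalized count per kb of exon (vertical axis, from 0) of the 10 genes in each library of V-K562 (V), B-K562 (B) and G-K562 (G). Points are libraries, and bars give the mean ± SD of 3 libraries except for CDKN2A and CDKN2B, which are at 0 in most libraries. CDKN1A falls to 197 per kb in B-K562 and stands at 1520 per kb in G-K562.

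CDKN1A, an inhibitor of cyclin-CDK complexes, gave the largest differences of the 10 genes in B-K562. Its normalized counts were 2476, 2487 and 2889 in V-K562 and 521, 489 and 525 in B-K562. The groups did not overlap, and the level in B-K562 was 5.1-fold lower (log2 difference of value + 1 of -2.35, SE 0.07, adjusted p = 7e-12). On the scale of the table for G-K562 the counts were 2514, 2525 and 2948 in V-K562 and 4292, 3905 and 3816 in G-K562. All G-K562 libraries were above all V-K562 libraries, by 1.51-fold (log2 0.59, SE 0.07, adjusted p = 2.8e-05). CDKN1A fell with wtBASP1 and rose with BASP1-G2A, and G-K562 was 7.68-fold above B-K562 in the test of the lines against each other (log2 2.94, SE 0.07, adjusted p = 1.4e-13).

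CDKN1B, which holds CDK2 complexes inactive in resting cells, rose in G-K562. Its counts were 912, 890 and 811 in V-K562 and 1335, 1479 and 1424 in G-K562, with no overlap (log2 0.70, SE 0.07, adjusted p = 5.2e-06). In B-K562 they were 936, 968 and 1004 against 898, 876 and 795 in V-K562, a log2 difference of 0.18 (SE 0.06, adjusted p = 0.019). This small difference in B-K562 did not pass with upper-quartile scaling (log2 0.03, adjusted p = 0.72) or with trimmed-mean scaling (0.14, adjusted p = 0.055). It also did not pass without V-K562 replicate 3 (adjusted p = 0.061), B-K562 replicate 2 (0.057) or B-K562 replicate 3 (0.088). G-K562 was above B-K562 by a log2 difference of 0.52 (SE 0.06, adjusted p = 3.2e-06).

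CDKN1C, an imprinted inhibitor of the same family, fell in both lines. The V-K562 counts of 1010, 1104 and 1316 compared with 386, 339 and 318 in B-K562, a 3.27-fold lower level (log2 -1.71, SE 0.10, adjusted p = 2.6e-09). In the other table the V-K562 counts of 1025, 1121 and 1343 compared with 687, 658 and 614 in G-K562, 1.77-fold lower (log2 -0.82, SE 0.10, adjusted p = 1.6e-05). No library of either BASP1 line reached the lowest V-K562 library. The level in G-K562 was above that in B-K562 (log2 0.89, SE 0.10, adjusted p = 1.2e-06).

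The makeup of the CIP/KIP transcripts per kb moved with these changes. CDKN1A made up 52.0% ± 0.88 (SD, n = 3) of the summed level of the family in V-K562, 25.7% ± 0.63 in B-K562 and 63.0% ± 1.7 in G-K562. CDKN1B made up 17.9% ± 2.4, 51.0% ± 2.1 and 23.3% ± 1.9. CDKN1C made up 30.1% ± 1.9, 23.3% ± 2.2 and 13.7% ± 0.29. The most abundant inhibitor transcript of the family was thus CDKN1A in V-K562 and G-K562 and CDKN1B in B-K562. The summed level was 1942 ± 153.0 per kb in V-K562, 766.5 ± 12.3 in B-K562 and 2408 ± 91.4 in G-K562, with every library of B-K562 below and every library of G-K562 above those of V-K562.

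Of the INK4 family, which binds CDK4 and CDK6 alone, CDKN2C and CDKN2D were expressed and CDKN2A and CDKN2B were not measurable. CDKN2C rose in both lines. Its counts were 1594, 1487 and 1413 in V-K562 and 2158, 2104 and 2107 in B-K562 (log2 0.50, SE 0.05, adjusted p = 1.5e-06). In the other table they were 1619, 1509 and 1441 in V-K562 and 1817, 1917 and 1791 in G-K562 (log2 0.27, SE 0.06, adjusted p = 0.0027). B-K562 stood above G-K562, with a log2 difference of G-K562 minus B-K562 of -0.23 (SE 0.05, adjusted p = 0.0014), which did not pass with upper-quartile scaling (-0.11, adjusted p = 0.091).

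CDKN2D fell in B-K562. Its counts were 335, 287 and 333 in V-K562 and 182, 181 and 171 in B-K562, a 1.78-fold lower level without overlap (log2 -0.83, SE 0.09, adjusted p = 2.3e-06). In the other table the counts were 340, 291 and 340 in V-K562 and 394, 379 and 372 in G-K562 (log2 0.24, SE 0.09, adjusted p = 0.038). That difference did not pass without V-K562 replicate 2 (log2 0.17, adjusted p = 0.16), without any 1 of the G-K562 replicates (adjusted p from 0.06 to 0.11), without replicate 1 of both lines (0.11) or with upper-quartile scaling (0.069). Between the BASP1 lines CDKN2D was 2.1-fold higher in G-K562 (log2 1.07, SE 0.09, adjusted p = 4.1e-08). The share of CDKN2C in the summed INK4 level per kb was 72.9% ± 2.0 (SD, n = 3) in V-K562, 87.3% ± 0.33 in B-K562 and 73.5% ± 0.9 in G-K562, and nearly all of the rest was CDKN2D.

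CDKN2A, which codes for an INK4 protein and, in another reading frame, for the protein ARF, had counts of 14, 0 and 0 in V-K562, 2, 0 and 0 in B-K562 and 0 in all G-K562 libraries. CDKN2B had 7, 0 and 0 in V-K562 and 0 in all libraries of the other lines. Neither passed the filter of 10 in at least 3 libraries, and a count of 0 allows up to 3 counts. All values above 0 came from replicate 1 of V-K562 and of B-K562, the libraries described above as standing apart. No open region was found within 5 kb of either gene in any library. Of 8 genes listed as neighbours on the short arm of chromosome 9, none could be tested: MTAP, which flanks CDKN2A, had 2, 0 and 0 in V-K562, 4, 0 and 1 in B-K562 and 0, 1 and 0 in G-K562, and DMRTA1 was at 0 in every library. As background, K562 cells are known to have lost both copies of the segment that holds CDKN2A, CDKN2B and MTAP.

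Among the D-type cyclins, CCND3 rose in both lines. Its counts were 6621, 6743 and 6519 in V-K562 and 9887, 9560 and 9427 in B-K562, 1.45-fold higher (log2 0.54, SE 0.04, adjusted p = 7.8e-08). In the other table the V-K562 counts of 6723, 6846 and 6651 compared with 8555, 7403 and 7798 in G-K562 (log2 0.23, SE 0.06, adjusted p = 0.006), which missed the threshold without replicate 1 of both lines (log2 0.17, adjusted p = 0.072). CCND3 was higher in B-K562 than in G-K562, by a log2 difference of -0.31 as G-K562 minus B-K562 (SE 0.05, adjusted p = 9e-05).

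CCND2 fell in B-K562 and did not pass the test in G-K562. Its counts were 2499, 2866 and 2823 in V-K562 and 1620, 1632 and 1630 in B-K562, 1.67-fold lower (log2 -0.74, SE 0.06, adjusted p = 4.6e-08). In the other table the V-K562 counts of 2537, 2910 and 2880 overlapped with 2793, 2527 and 2802 in G-K562 (log2 -0.03, 95% confidence interval -0.19 to 0.12, adjusted p = 0.68). The lines with BASP1 differed from each other (log2 0.71, SE 0.06, adjusted p = 7.2e-08). CCND2 shares 126 bases of exon with the antisense gene CCND2-AS1, and the strand setting of the counting is not given in the sources used here.

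CCND1 fell slightly in B-K562 and rose in G-K562. The counts were 749, 700 and 637 in V-K562 and 570, 598 and 577 in B-K562 (log2 -0.25, SE 0.07, adjusted p = 0.0051). In the other table the V-K562 counts of 761, 710 and 650 compared with 1889, 1222 and 1435 in G-K562, where replicate 1 was the highest (2.11-fold, log2 1.08, SE 0.13, adjusted p = 2.1e-05). The lowest G-K562 library was above the highest V-K562 library, and without G-K562 replicate 1 the log2 difference was 0.91 (adjusted p = 2.3e-05), under 2-fold. G-K562 was 2.52-fold above B-K562 (log2 1.33, SE 0.12, adjusted p = 1.1e-07). CCND1 shares 1055 bases of exon with ORAOV1 on the opposite strand, so reads of the pair could be mixed if strand was not used.

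CCND3 made up most of the D-type cyclin transcripts per kb in every line, with 78.9% ± 0.56 (SD, n = 3) in V-K562, 89.1% ± 0.31 in B-K562 and 77.3% ± 0.98 in G-K562. CCND2 made up 15.3% ± 1.0, 7.09% ± 0.17 and 12.4% ± 0.65, and CCND1 5.78% ± 0.47, 3.76% ± 0.15 and 10.2% ± 1.4. The summed level per kb was 2672 to 2755 in V-K562 libraries. With wtBASP1 it was 3409 to 3554, and with BASP1-G2A 2988 to 3539. The 2 BASP1 lines overlapped in this sum and V-K562 lay below both.

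**Figure D2:**
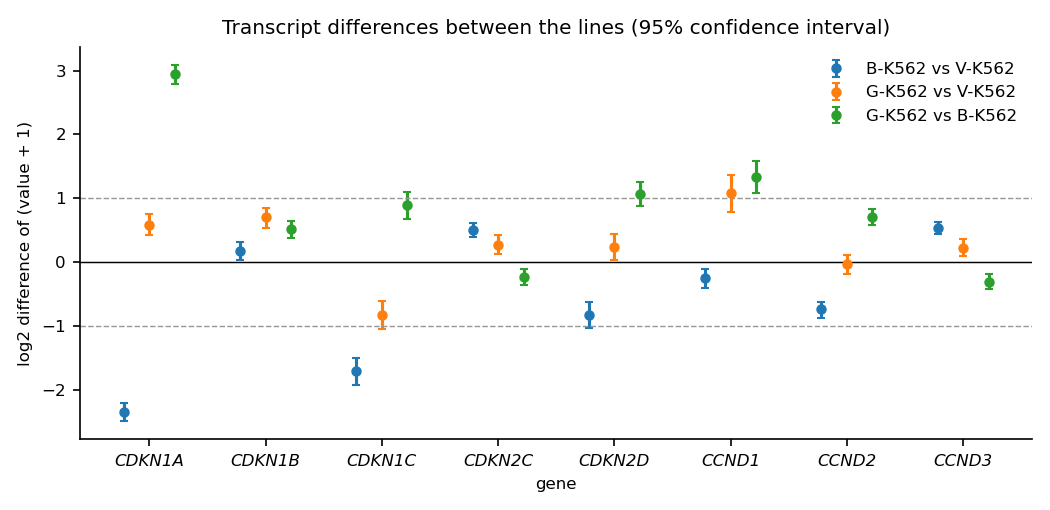
Log2 difference of value + 1 (vertical axis) of the 8 genes tested, in B-K562 against V-K562, G-K562 against V-K562 and G-K562 against B-K562. Bars are 95% confidence intervals and dashed lines mark a 2-fold difference. CDKN1A lies at -2.35, 0.59 and 2.94 in the 3 comparisons, and CCND2 in G-K562 against V-K562 has the only interval that includes 0.

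Across the members, 8 of 10 were tested in each comparison. At an adjusted p of at most 0.05, 3 were higher and 5 lower in B-K562 than in V-K562, where 38.6% of the 14958 genes tested were higher and 37.2% lower. With a 2-fold change also required, 0 were higher and 2 lower, CDKN1A and CDKN1C, against 6.46% and 14.1% of all genes tested. In G-K562 against V-K562, 6 were higher, 1 was lower and 1 did not pass, against 33.5% and 33.3% of 15271 genes, and with a 2-fold change 1 was higher and 0 lower (8.81% and 10.3%). In G-K562 against B-K562, 6 were higher and 2 lower (38.1% and 40.5% of 15521 genes), and with a 2-fold change 3 were higher, CDKN1A, CDKN2D and CCND1, and 0 lower (17.4% and 12.5%). Passing the adjusted p alone was thus common in these data, at 75.8%, 66.9% and 78.5% of genes, and the share of members that passed is read against that. The members' median log2 differences were -0.50, 0.26 and 0.80, beside 0.01, 0.00 and -0.02 over all genes tested. The comparisons of the 2 BASP1 lines with V-K562 share their control libraries. Upper-quartile scaling moved the median of all genes in B-K562 from 0.01 to -0.15 and the share of higher genes among 2-fold calls from 31.4% to 20.8%.

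Accessibility was measured as the summit pileup, the number of ATAC-seq tags stacked at the highest point of a peak called in that library. A region was tested where at least 3 of the libraries compared had a peak, and a library without a called peak entered at 17 tags, so a difference that rests on such libraries depends on this value and is neither a measured fold nor a bound. Pileups are given as deposited, and log2 differences after scaling, which divided V-K562 by 0.93 to 0.967 and B-K562 by 1.04 to 1.08 in their comparison, and V-K562 by 0.869 to 0.902 and G-K562 by 1.09 to 1.15 in theirs. Of the 42 regions, 32 were tested in B-K562 against V-K562, with 3 opened and 4 closed at an adjusted p of at most 0.05, where 8.57% and 16.6% of all regions tested did so. In G-K562 against V-K562, 6 of 37 opened and 5 closed (16.1% and 25.9% of all), and in G-K562 against B-K562 7 of 38 opened and 6 closed (12.7% and 15.4%). Of the 42 regions, 4 had their summit within 100 bp of the start of another gene. Among these, a region near CDKN2D at the KRI1 start opened in G-K562 (log2 0.37, adjusted p = 0.024). Another, over a CCND3 start and 63 bp from the TAF8 start, was lower in G-K562 than in B-K562 (-0.47, adjusted p = 0.0097). In either direction 25.2%, 42.0% and 28.0% of all regions passed in these comparisons, and the counts of the members' regions are read against that. With a 2-fold change, the counts were 0 opened and 1 closed in B-K562 (1.53% and 6.16% of all), 1 and 1 in G-K562 (2.91% and 13.1%) and 6 and 2 between the BASP1 lines (4.37% and 8.5%). Without the scaling the share of opened regions among all 2-fold calls was 33.9% instead of 19.9% in B-K562, 48.5% instead of 18.2% in G-K562 and 48.0% instead of 34.0% between the BASP1 lines, and the median of all regions moved from -0.06 to 0.06, from -0.09 to 0.19 and from 0.00 to 0.12.

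At CDKN1A, the region over the start, chr6:36678416-36678972, holds the promoter shown above. Its summit pileups were 93, 108 and 105 tags in V-K562, 82, 63 and 95 in B-K562 and 190, 177 and 194 in G-K562. The G-K562 libraries lay far above those of both other lines, and B-K562 replicate 3 overlapped with V-K562. After scaling, the log2 difference was -0.52 in B-K562 (SE 0.16, adjusted p = 0.047), 0.53 in G-K562 (SE 0.09, adjusted p = 0.003) and 1.03 between the BASP1 lines (SE 0.14, adjusted p = 0.00043). The difference in B-K562 did not pass without the scaling (-0.36, adjusted p = 0.13), with the mean pileup over the interval (-0.41, adjusted p = 0.054), or without any 1 of the libraries except B-K562 replicate 3 (adjusted p from 0.066 to 0.13), and that in G-K562 did not pass with scaling within bins of GC content (0.17, adjusted p = 0.20), while the difference between the BASP1 lines passed under both (1.23 and 0.93).

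The next strong region of CDKN1A, chr6:36680062-36680749, lies in an intron with its summit 1791 bp past the start. Its pileups were 99, 95 and 74 tags in V-K562, 60, 55 and 62 in B-K562 and 180, 186 and 193 in G-K562, and the 3 lines did not overlap. The log2 difference was -0.73 in B-K562 (SE 0.15, adjusted p = 0.011), 0.72 in G-K562 (SE 0.13, adjusted p = 0.0041) and 1.44 between the BASP1 lines (SE 0.12, adjusted p = 3.1e-05). These passed without the scaling and within bins of GC content too. A region 4892 bp past the end of the gene, chr6:36692231-36692603, had 40, 27 and 40 tags in V-K562, peaks of 24 and 20 in 2 B-K562 libraries and 59, 43 and 65 in G-K562 (log2 -0.90, adjusted p = 0.023 in B-K562, 0.29, adjusted p = 0.35 in G-K562, and 1.21, adjusted p = 0.0041 between them). The difference in B-K562 there did not pass without V-K562 replicate 1 or 3 or B-K562 replicate 2 or 3 (adjusted p from 0.056 to 0.084). The other region of CDKN1A had peaks in 2 V-K562 and 2 G-K562 libraries and passed no test. Further out, at 8949 bp before the gene and outside the 5 kb, chr6:36667048-36667511 had 77, 55 and 69 tags in V-K562, no peak in B-K562 and 159, 146 and 141 in G-K562 (log2 0.81, adjusted p = 0.0048 in G-K562). The transcript of CDKN1A and both of its strong regions had a lower value in B-K562 and a higher one in G-K562 than in V-K562.

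**Figure D3:**
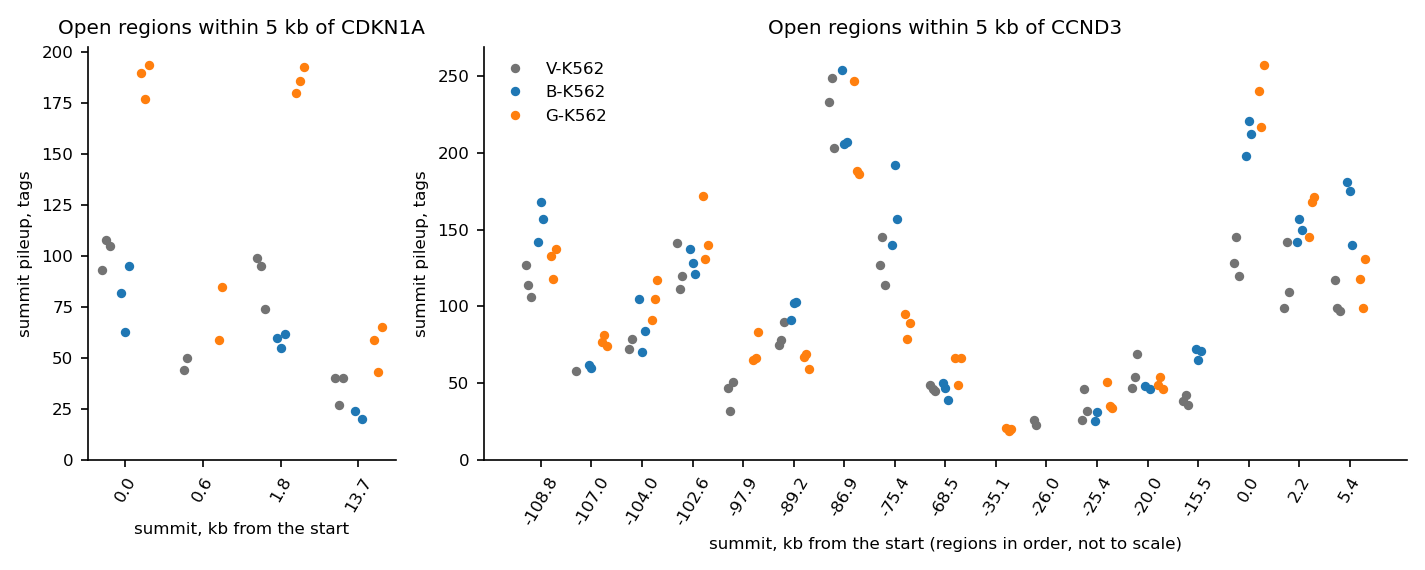
Summit pileup in tags (vertical axis, from 0) of each region within 5 kb of CDKN1A and of CCND3, by library, with regions in order along the direction of transcription and labelled by the distance of the summit in kb from the CDKN1A start and from the internal CCND3 start. Libraries without a called peak have no point. At 1.8 kb past the CDKN1A start the G-K562 libraries reach 180 to 193 tags, and at -15.5 kb from the CCND3 start they have no peak.

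The start regions of the other CIP/KIP genes passed no test over regions with peaks in at least 3 libraries. At the CDKN1B start, the region chr12:12717016-12717622, which also lies at the start of GPR19, had 45, 40 and 46 tags in V-K562, 69, 53 and 63 in B-K562 and 64, 71 and 80 in G-K562. Both BASP1 lines were above V-K562 in tags, but neither passed after scaling (log2 0.33, adjusted p = 0.19, and 0.36, adjusted p = 0.10), and without the scaling only G-K562 did (0.70, adjusted p = 0.0075). At the CDKN1C start, the region chr11:2885007-2886100, had 100, 83 and 120 tags in V-K562, 103, 100 and 109 in B-K562 and 164, 185 and 144 in G-K562 (log2 -0.09, adjusted p = 0.66, and 0.36, adjusted p = 0.13). No region within 5 kb of CDKN1C passed such a test in any comparison. The 95% confidence interval of the start region was -0.44 to 0.25 for B-K562, and for G-K562 it was -0.04 to 0.76. The G-K562 pileups lay above those of V-K562 before scaling, and the difference was 0.71 without the scaling (adjusted p = 0.0078), 0.36 over regions with a peak in every library (adjusted p = 0.043) and -0.06 within bins of GC content (adjusted p = 0.82). At 6930 bp before the gene and outside the 5 kb, chr11:2892746-2893142 had 43, 43 and 53 tags in V-K562, a peak of 40 tags in 1 B-K562 library and 36, 35 and 49 in G-K562. It closed in B-K562 with absent peaks at 17 tags (log2 -1.10, SE 0.32, adjusted p = 0.036) and did not pass in G-K562 (-0.56, SE 0.19, adjusted p = 0.052).

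At the INK4 genes, the region over the internal CDKN2C start, chr1:50969631-50970313, had 105, 69 and 74 tags in V-K562, 89, 97 and 83 in B-K562 and 67, 54 and 59 in G-K562. All G-K562 libraries were below all others, with a log2 difference of -0.78 against V-K562 (SE 0.19, adjusted p = 0.015) and -0.78 against B-K562 (SE 0.17, adjusted p = 0.008). Without the scaling the first of these was -0.44 (adjusted p = 0.091). The other CDKN2C start region within 5 kb, chr1:50968024-50968830, with 115 to 161 tags in all libraries, passed no test after scaling. Its difference in G-K562 was -0.05, but 0.29 without the scaling (adjusted p = 0.046) and -0.35 within bins of GC content (adjusted p = 0.024). A further CDKN2C start lies upstream, outside the 5 kb. The region before it, chr1:50959730-50960738, passed no test after scaling (adjusted p = 0.21 in B-K562, 0.5 in G-K562 and 0.37 between them). CDKN2D had at its start, chr19:10568748-10569367, the highest pileup of all 42 regions, with 290, 268 and 285 tags in V-K562, 410, 354 and 323 in B-K562 and 405, 456 and 455 in G-K562. Its log2 difference was 0.21 in B-K562 (adjusted p = 0.14) and 0.29 in G-K562 (SE 0.08, adjusted p = 0.026), and -0.07 in G-K562 within bins of GC content (adjusted p = 0.57). The difference in G-K562 also did not pass without V-K562 replicate 2 or 3 or G-K562 replicate 2 or 3 (adjusted p from 0.061 to 0.084). CDKN2D transcripts fell in B-K562, where the value of the start region was 0.21 and did not pass.

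**Figure D4:**
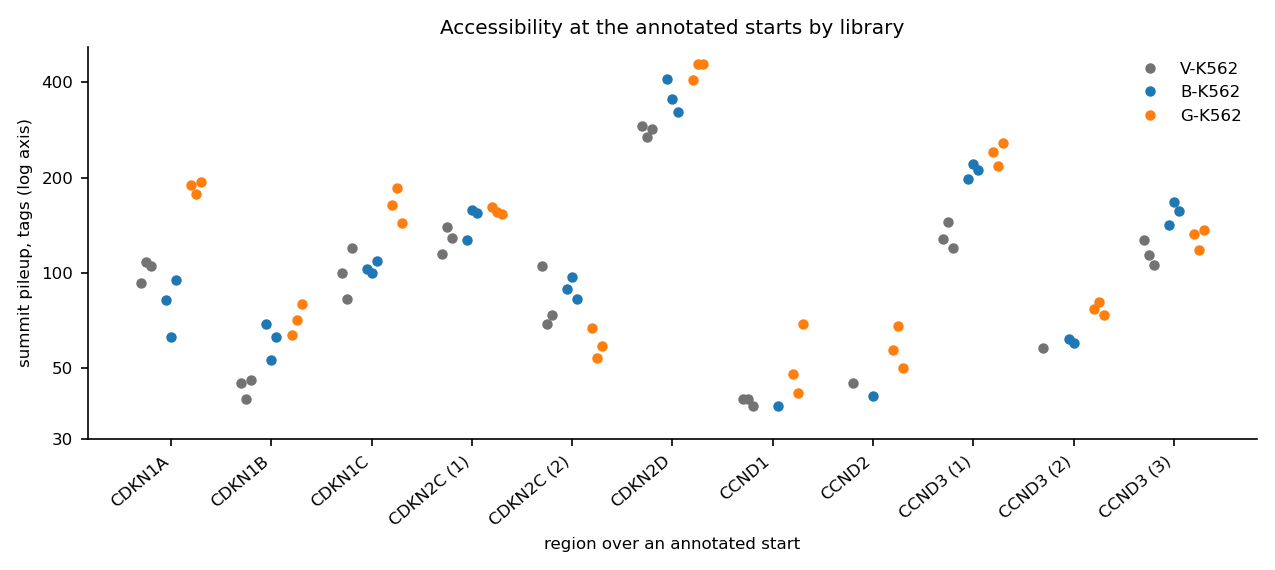
Summit pileup in tags (log axis) by library of the 11 regions over an annotated start, numbered by position on the chromosome where a gene has several. Libraries without a called peak have no point. The CDKN2D region reaches 456 tags, and at CDKN1A the G-K562 libraries stand at 177 to 194 tags.

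CCND3 had 17 of the 42 regions, spread over its long introns. The region over its internal start, chr6:41941509-41942236, which holds the promoter shown above, had 128, 145 and 120 tags in V-K562, 198, 221 and 212 in B-K562 and 240, 217 and 257 in G-K562. It opened in both lines (log2 0.53, SE 0.10, adjusted p = 0.0082, and 0.51, SE 0.10, adjusted p = 0.0046), though within bins of GC content the difference in G-K562 was 0.21 (adjusted p = 0.15), and with the mean pileup over the interval 0.33 (adjusted p = 0.05, which missed the threshold before rounding). The BASP1 lines did not pass the test against each other there (log2 -0.03, SE 0.09, adjusted p = 0.88).

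An intronic CCND3 region, chr6:41957118-41957573, had 38, 42 and 36 tags in V-K562, 72, 65 and 71 in B-K562 and no called peak in any G-K562 library. It opened in B-K562 (log2 0.68, SE 0.16, adjusted p = 0.017), which did not pass without V-K562 replicate 3 or B-K562 replicate 1 or 3 (adjusted p from 0.056 to 0.062), and closed in G-K562 with the absent peaks at 17 tags (-1.31, SE 0.15, adjusted p = 0.0006). Another, chr6:42039514-42039979, went the other way, with 47, 32 and 51 tags in V-K562, no called peak in B-K562 and 65, 66 and 83 in G-K562 (log2 -1.35, adjusted p = 0.0054 in B-K562, 0.38, adjusted p = 0.19 in G-K562, and 1.81, adjusted p = 0.0002 between the BASP1 lines). At chr6:42016972-42017654 the pileups were 127, 145 and 114 tags in V-K562, 140, 192 and 157 in B-K562 and 95, 79 and 89 in G-K562, with peaks in every library. That region closed in G-K562 against V-K562 (log2 -0.89, SE 0.12, adjusted p = 0.0012) and against B-K562 (-1.08, SE 0.14, adjusted p = 0.00032). Also closed in G-K562 against V-K562 were chr6:42028180-42028983 (log2 -0.49, adjusted p = 0.019) and chr6:42030777-42031342 (-0.65, adjusted p = 0.0079). The region over the internal start was the only CCND3 region that opened in G-K562 against V-K562, where the CCND3 transcript rose.

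CCND2 had peaks in few libraries. The region chr12:4271957-4272302 lies 1431 bp before the RefSeq gene body, in an intron of a CCND2 transcript of GENCODE v44. It had no called peak in V-K562, 35 tags in 1 B-K562 library and 49, 52 and 59 in G-K562 (log2 1.42, SE 0.16, adjusted p = 0.00054 against V-K562 and 1.05, adjusted p = 0.014 against B-K562, both with absent peaks at 17 tags). The second of these did not pass without B-K562 replicate 1 or 2 (0.88, adjusted p = 0.057). The region next to it, chr12:4272408-4272910, had 34 and 35 tags in 2 V-K562 libraries, none in B-K562 and 50, 38 and 46 in G-K562 (log2 1.14, adjusted p = 0.016 between the BASP1 lines). The CCND2 start region, chr12:4273575-4273874, had 1 peak in V-K562, 1 in B-K562 and 57, 68 and 50 tags in G-K562, and passed no test. The CCND1 start region, chr11:69640989-69641351, had 40, 40 and 38 tags in V-K562, a peak of 38 tags in 1 B-K562 library and 48, 42 and 69 in G-K562. Neither line passed against V-K562 there (log2 -0.89, adjusted p = 0.065, and 0.05, adjusted p = 0.86), and the BASP1 lines differed from each other (0.98, SE 0.32, adjusted p = 0.044), a result that missed the threshold within bins of GC content (adjusted p = 0.059), with the mean pileup over the interval (0.051) and without any 1 of the libraries except B-K562 replicate 3 (0.052 to 0.14).

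Among the kinases the D-type cyclins act through, CDK4 rose in both lines, from 5567, 5277 and 5020 in V-K562 to 8193, 8024 and 7805 in B-K562 (log2 0.60, adjusted p = 8.8e-08) and by a log2 difference of 0.25 in G-K562 (adjusted p = 0.0026). CDK6 rose in B-K562 (0.39, adjusted p = 3.2e-06) and fell in G-K562 (-0.36, adjusted p = 0.00042). CDK2, the kinase that the CIP/KIP proteins inhibit, differed by 0.15 and 0.19. Of 7 genes for CDKs and the CDK-activating kinase, 3 were higher and 1 lower in B-K562, and 2 higher and 4 lower in G-K562, beside 38.6% higher and 37.2% lower of all genes in B-K562 and 33.5% and 33.3% in G-K562. The lowest were CDK1 in B-K562 (-0.20) and CCNH, a subunit of the CDK-activating kinase, in G-K562 (-0.47). The list had medians of 0.06 and -0.31, beside 0.01 and 0.00 over all genes.

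Downstream of the D-type cyclins, 10 of 13 genes of the RB and E2F families were higher and 1 lower in B-K562, and 8 were higher and 2 lower in G-K562. Over all genes tested 38.6% were higher and 37.2% lower in B-K562, and 33.5% and 33.3% in G-K562, and the counts of each list are read against these shares. RB1 did not pass in B-K562 (0.08, adjusted p = 0.16) and rose in G-K562 (0.48, adjusted p = 1.7e-05), and E2F1 rose in both (0.35 and 0.22). E2F4, a factor that mostly works with RB relatives in repression, rose 1.10 in B-K562 (adjusted p = 3.5e-10). RBL2, an RB relative that acts in resting cells, fell in B-K562 (-0.66) and rose in G-K562 (0.46). Of 12 genes that E2F factors switch on for S phase, 9 of them for DNA synthesis and its licensing and 3 cyclins (CCNE1, CCNE2 and CCNA2), 9 were higher and 2 lower in B-K562 (median 0.36) and 2 were higher and 7 lower in G-K562 (median -0.20). PCNA, the sliding clamp of DNA polymerase, had the highest difference of the list in B-K562 (0.82, adjusted p = 4.1e-07), and RRM1, a subunit of ribonucleotide reductase, lowest in G-K562 (-0.56, adjusted p = 2.1e-05). Of the 5 cyclins of the E, A and B types tested, which include the same 3, 4 were higher and 1 lower in B-K562, led by CCNE1 (0.76), and 1 was higher and 3 lower in G-K562, where CCNB2 was lowest (-0.48). CCNE1, counted as lower in G-K562 in both lists, had libraries that overlapped with V-K562 there (-0.26, adjusted p = 0.05).

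Of 16 genes listed for the turnover of CDK inhibitors and D-type cyclins, 11 were higher and 4 lower in B-K562 and 3 were higher and 9 lower in G-K562, with medians of 0.21 and -0.19, where 38.6% of all genes were higher and 37.2% lower in B-K562 and 33.5% and 33.3% in G-K562. SKP2, the receptor that delivers the CDKN1B and CDKN1A proteins for ubiquitination, had 2108, 2250 and 2091 normalized counts in V-K562 and 6522, 6352 and 6336 in B-K562 (log2 1.57, SE 0.05, adjusted p = 9.1e-12). In G-K562 it had 1205, 1267 and 1183 against 2141, 2285 and 2133 (-0.84, SE 0.06, adjusted p = 3.1e-07). It stood at the top of the list in B-K562, and CDC20, an activator of the anaphase-promoting complex, stood at the bottom in G-K562 (-0.94, adjusted p = 1.1e-07). Protein levels were not measured here.

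**Figure D5:**
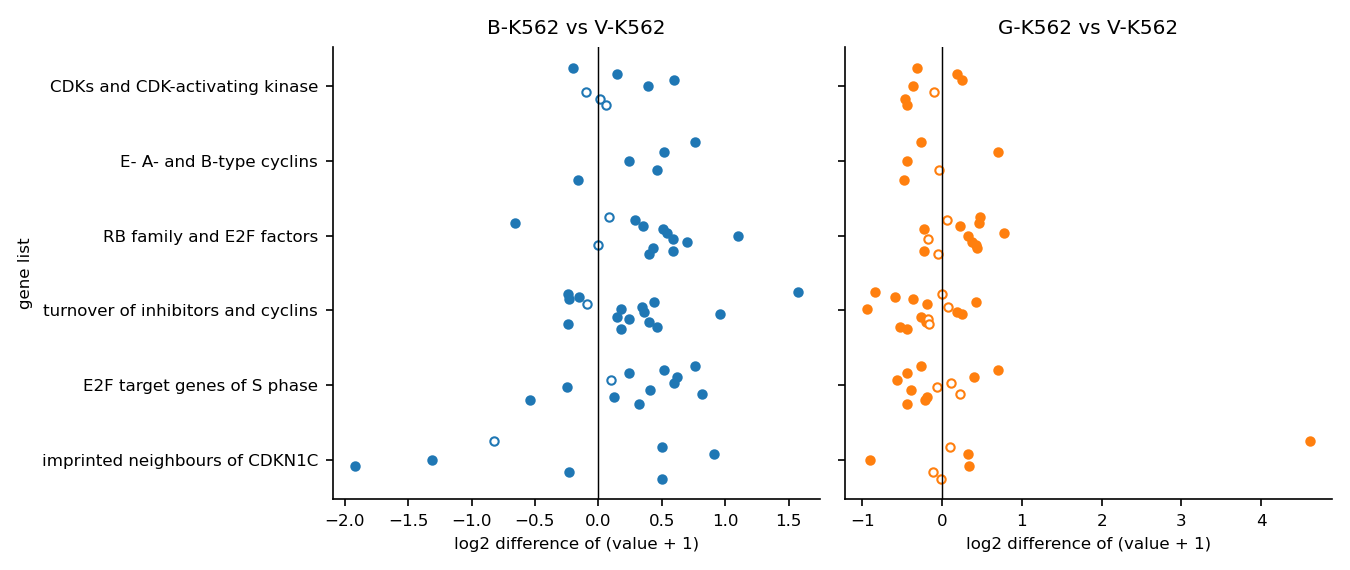
Log2 difference of value + 1 (horizontal axis) of the genes of 6 lists in B-K562 against V-K562 and in G-K562 against V-K562, 1 point a gene tested. Filled points passed an adjusted p of at most 0.05 and open points did not. Of the E2F target genes, 9 lie above 0 and passed in B-K562 and 7 lie below 0 and passed in G-K562.

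CDKN1C lies in an imprinted domain of chromosome 11, and of its 9 listed neighbours 7 were tested, with 3 higher and 3 lower in B-K562 and 3 higher and 1 lower in G-K562. With 38.6% and 37.2% of all genes higher and lower in B-K562 and 33.5% and 33.3% in G-K562, these counts are near the background. KCNQ1OT1, the non-coding RNA that silences CDKN1C in cis on the paternal copy, fell in both lines, from 1038, 1195 and 1328 to 453, 474 and 503 in B-K562 (log2 -1.31, adjusted p = 7.9e-09) and by 0.90 on the log2 scale in G-K562 (adjusted p = 1.9e-05). SLC22A18 fell in B-K562 (-1.92) and rose in G-K562 (0.34). H19 varied widely between the V-K562 libraries, with 1148 in replicate 1 and then 329 and 294. It rose to 10611, 13821 and 10998 in G-K562 (log2 4.61, SE 0.39, adjusted p = 1e-06). In B-K562 H19 did not pass (-0.82, adjusted p = 0.18).

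The genes whose transcripts went most like a member across the 9 libraries were found by Pearson's r over 15521 genes, as a description of libraries that fall into 3 lines. PHGDH (r = 0.9987), an enzyme of serine synthesis, and SEL1L3 (r = 0.9985) were nearest to CDKN1A. SRSF8 (r = 0.9997) was nearest to CDKN2C, KDELR2 (r = 0.9921) to CDKN1C, EFCAB11 (r = 0.9967) to CDKN1B, C3 (r = 0.9963) to CCND2 and ZNF696 (r = 0.995) to CCND3. For CDKN2D they were CLEC11A (r = 0.9972) and BBC3 (r = 0.994).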

How the data were processed

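RNA-seq (TruSeq Stranded mRNA) and ATAC-seq had 9 libraries each, 3 culture replicates of each line. The authors aligned RNA-seq reads to GRCh38 with STAR, removed duplicates and used Subread to count them on RefSeq genes. Deposited signal values for RNA-seq are these counts divided by size factors and rounded, in a table for each BASP1 line normalized separately with V-K562. Means, fold changes and p-values of the authors' own comparisons, also in the tables, were not used. ATAC-seq reads were aligned with BWA-MEM, libraries were sampled to equal tags, and MACS2 peaks were called in each library. The deposited ATAC-seq signal is the pileup of tags, and coordinates are printed as deposited.

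Tests used limma 3.58.1 in R 4.3.3 (eBayes with trend), adjusted by Benjamini-Hochberg over all genes or regions tested. Genes needed a value of 10 in 3 libraries, on the scale log2(value + 1), which understates the change of low genes. For G-K562 against B-K562, and for levels per kb, B-K562 was multiplied by 1.01697 (the ratio of the V-K562 columns) and all 9 libraries were fitted. Totals were 32074895 to 33229588 normalized counts per library, which is not the read depth.

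Overlapping ATAC-seq intervals were merged into 85549 regions with a mean of 425.9 bp. Each library's highest summit pileup was divided by a trimmed-mean factor (30% of log ratios and 5% of means trimmed) from regions with peaks in all libraries compared. Values under 17, the 5th percentile of summit pileups, or absent, were set to 17. Gene models are GENCODE v44, and the 5 kb were counted from the RefSeq gene bodies of the RNA-seq counts.

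Named genes are the members, BASP1, the extremes of each list in each comparison, a short set (CDK4, CDK6, CDK2, RB1, E2F1, MTAP, SKP2, KCNQ1OT1) and the genes most like each member. A few of these genes and 1 list are not reported here. DMRTA1, single markers of cell types, and genes that share exons or open regions with a member were named after their values were seen. Members and lists were chosen with earlier results of these data known. The scripts were tested on simulated data. The main tests did not pair the samples by replicate number. Correlations of same-numbered deviations were -0.08 to 0.136 in RNA-seq and 0.008 to 0.122 in ATAC-seq. For replicate 1 in ATAC-seq they were 0.122, 0.088 and 0.112, where the highest with another number were -0.048, -0.038 and -0.033. A weak pairing in ATAC-seq is thus left open.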

Additional observations from a re-analysis of the deposited data

Results flagged for a closer look

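Each result here differed between the BASP1 lines in the test of G-K562 against B-K562 (limma, 9 libraries), with a log2 difference from V-K562 of opposite sign in the lines. Of the members, CDKN1A transcripts gave a log2 difference of 2.94 (-2.35 in B-K562 and 0.59 in G-K562), CDKN2D 1.07 (-0.83 and 0.24) and CCND1 1.33 (-0.25 and 1.08). The region over the CDKN1A start gave 1.03 (-0.52 and 0.53), the intronic region of CDKN1A from 36680062 gave 1.44 (-0.73 and 0.72) and the intronic CCND3 region from 41957118 gave -1.98 (0.68 and -1.31), which rests on G-K562 libraries without a called peak.

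Other genes of the lists gave the following differences of G-K562 minus B-K562. SLC22A18, a neighbour of CDKN1C on chromosome 11 and not a cell cycle gene, gave 2.25 (-1.92 in B-K562 and 0.34 in G-K562). RBL2 gave 1.12 (-0.66 and 0.46). SKP2 gave -2.42 (1.57 and -0.84), CDC20 -1.12 (0.18 and -0.94), CCNE1 -1.02 (0.76 and -0.26), TFDP1 -0.82 (0.59 and -0.23) and CDK6 -0.75 (0.39 and -0.36). The CCNE1 libraries of G-K562 overlapped with those of V-K562 (adjusted p = 0.05).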

How the results depend on the processing

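Counts are of members or regions at an adjusted p of at most 0.05 and a 2-fold change unless said otherwise. Of the recomputed counts with all libraries kept, 76 stayed within 1.5 times the value reported and 22 did not. With the adjusted p alone the members higher and lower were 3 and 5 in B-K562, 6 and 1 in G-K562, and 6 and 2 between the BASP1 lines, and the regions opened and closed 3 and 4, 6 and 5, and 7 and 6. Members 2-fold higher in G-K562 were 0 without replicate 1 of both lines, an alternative chosen after seeing the data. With a peak required in every library, 0 regions closed in B-K562, 0 opened and 0 closed in G-K562, and 2 opened and 1 closed between the BASP1 lines, since fewer regions are tested. In B-K562, 2 regions closed with the floor at 10 tags, the lowest pileup, 2 with scaling within 20 bins of GC content (chosen after seeing the data) and 3 within 10 kb. Without scaling 5 regions opened in G-K562 and 1 closed between the BASP1 lines. Reversed values were those of the CDKN2C start region from 50968024 in G-K562 without scaling (0.29) and of the CDKN2D start in G-K562 within bins of GC content (-0.07). The cause of these changes was not tested.

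With each library left out in turn, members 2-fold higher in G-K562 ranged from 0 to 1 (0 without G-K562 replicate 1), regions closed in B-K562 from 0 to 2 (0 without V-K562 replicate 1 or 3, 2 without B-K562 replicate 3), regions opened in G-K562 from 0 to 2 (0 without G-K562 replicate 1 or 2, 2 without any 1 V-K562 library), regions closed in G-K562 from 0 to 1 (0 without any 1 V-K562 library) and regions closed between the BASP1 lines from 1 to 3 (1 without B-K562 replicate 2). A region with peaks in 3 libraries of 1 line only is no longer tested when 1 of these is left out. The main tests did not pair the samples by replicate number. With the replicate block, 3 regions opened in G-K562 instead of 1, and no other count of members or regions moved by over 1.5 times.

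Of the values of single members and regions, 7 and 26 lost their call with a single library left out, 2 member values without replicate 1 of both lines, and 4 and 9 in other alternatives. Of region values, 8 gained a call with a library left out and 16 in other alternatives. No called member reversed. Limits: counts of reads were not used, peaks called in each library leave low accessibility unmeasured, and each line is 1 pool of transfected cells.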
